A study of Mus musculus with 21 samples.

Results

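The BCL2 family decides whether a cell commits to apoptosis at its mitochondria, and its expression is described here in mouse hematopoietic stem cells (HSCs). The members are taken by gene symbol: Mcl1, Bcl2 and Bcl2l1 among the survival proteins, Bax, Bak1 and Bok among the pore formers, and Bcl2l11, Bbc3, Pmaip1 and Bmf among the BH3-only proteins. All 10 were found in the count table, which holds 47729 genes. Each had enough counts to be tested in the treatment experiment, where 16149 genes were tested. In the reporter experiment 9 of the 10 were tested among 15375 genes, because Pmaip1 had too few counts.

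Survival members such as MCL1, BCL2 and BCL-XL (the product of Bcl2l1) hold BAX and BAK in check at the outer mitochondrial membrane. BH3-only proteins such as BIM (Bcl2l11), PUMA (Bbc3), NOXA (Pmaip1) and BMF bind the survival members and free BAX and BAK to open pores that release cytochrome c. HSCs are known to depend on MCL1 for survival, and MCL1, NOXA and BOK are known as proteins that the proteasome removes quickly, so transcript counts need not follow protein levels.

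RNA came from bone marrow HSCs sorted as CD48- LSK CD150+ cells, and libraries were made with SMART-seq2, which reads polyadenylated transcripts from small cell samples. In the treatment experiment, wildtype (WT) mice and Mx1-Cre;Atg5fl/fl mice, titled Atg5-/-, received 10 mg/kg bortezomib or 10% DMSO into the retro-orbital sinus 48 h and 24 h before analysis. The Cre of these mice is driven by the interferon-inducible Mx1 promoter, which is active in blood cells and in other tissues, and the labels name no inducing agent. Bortezomib inhibits the proteasome, and Atg5 is needed for autophagy. The reporter experiment used untreated RFP-EGFP-LC3 mice, whose tagged LC3 marks autophagic membranes, and divided their HSCs into RFP single positive, RFP GFP double positive and RFP GFP double negative cells. The design gives 7 groups of 3 libraries, 12 libraries in the treatment experiment and 9 in the reporter experiment. Nothing in the labels says that the libraries of a group came from separate animals, so the p-values measure the spread between these libraries, which may be technical.

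Library totals lay between 15005500 and 31481691 counts, with 16095 to 18899 genes detected. A floor of 3 counts corresponded to 0.0964 to 0.19 CPM (counts scaled to library size), which covers counting error only. Atg5, the targeted gene, was looked at first and was not lower in the libraries labelled Atg5-/-: WT libraries held 56.5 ± 17.4 CPM (SD, n = 3) with DMSO and 103 ± 31.6 with bortezomib, and the Atg5-/- libraries 112 ± 3.77 and 111 ± 27.2. A count over the whole gene does not isolate a deleted part, so the labels remain unchecked and these libraries are called knockout-labelled below. On the third principal component of the treatment libraries (10.4% of the variance), WT DMSO 3 (41.2), knockout-labelled bortezomib 3 (27.8) and WT bortezomib 3 (14.7) stood above the other libraries (-21.8 to 6.87). In all 4 treatment groups library 3 was the highest of its group on this component. Fits below without the 3 libraries that stood apart leave out those 3 together, a choice that rests on these same data. Such fits take a library from each treatment group but knockout-labelled DMSO, whose library 3 is kept. Xist made up 0% to 100% of Xist plus Ddx3y counts, and it differed widely between libraries of the same group in 6 of the 7 groups, the exception being knockout-labelled DMSO. In the reporter groups the Xist share went with the library number, as given at the end. It also went with the genotype labels: in DMSO it was 60% to 99.2% in WT and 0.234% to 0.987% in knockout-labelled libraries, so that the share and the label cannot be told apart there. With bortezomib it was 31.8% to 90.3% in WT libraries and 100%, 0% and 3.51% in knockout-labelled ones. With this share as a covariate, edgeR called 5 members between the labels in bortezomib and 3 for bortezomib in WT, as without it. In the knockout label the members called for bortezomib went from 1 to 0, and the interaction of Bbc3 no longer passed (edgeR adjusted p = 0.1594). HSC markers were high throughout the treatment experiment. Their summed level over 7 genes was 2820 to 3105 CPM (DMSO) and 1636 to 2037 (bortezomib) in the WT groups and 2639 to 3308 (DMSO) and 2353 to 2659 (bortezomib) in the knockout-labelled groups.

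Among the members taken for each functional class, transcripts per unit length came mostly from a single gene. Genes of these classes outside the members, such as the BH3-only gene Bad given below, are not part of these shares. Levels here are CPM per kilobase of merged exons, which allows genes of different length to be compared. In WT DMSO, Mcl1 stood at 96.1 ± 9.61 CPM per kb and made up 81.9% ± 2.37 of the 3 survival genes, against 10.2% ± 1.57 for Bcl2l1 and 7.90% ± 0.919 for Bcl2. Bax, at 55.1 ± 2.05 CPM per kb, made up 92.2% ± 1.37 of the 3 pore formers, with Bok at 6.53% ± 0.966 and Bak1 at 1.30% ± 0.514. Bbc3, at 9.80 ± 0.643 CPM per kb, made up 77.8% ± 2.46 of the 4 BH3-only genes, with Bcl2l11 at 18.1% ± 6.02. Pmaip1 (2.64% ± 2.89) and Bmf (1.49% ± 0.814) were near the floor in some libraries. The leading member of each class was the same in all 7 groups, with group means of 77.2% to 83.4% for Mcl1, 87.8% to 95.6% for Bax and 73.2% to 85.4% for Bbc3.

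Between the bortezomib groups, Bbc3 and Mcl1 rose while Bax and Bok fell in knockout-labelled against WT HSCs, as described below. Their promoters are shown so that these opposite pairs can be read beside their sequence. Pmaip1, which also rose, had no promoter sequence to show. Each window is the 250 bases before a RefSeq gene start (GRCm38.p6), written 5′ to 3′ on the strand of the gene. Capitals mark matches, on either strand, to the GC box GGGCGG, the E-box CACGTG and the p53 half-site. The Bbc3 window, the first of its 3 RefSeq starts, lies at chr7:16309333-16309582 on the plus strand. The Mcl1 window lies at chr3:95658471-95658720 on the plus strand, the Bax window at chr7:45466899-45467148 on the minus strand and the Bok window at chr1:93685325-93685574 on the plus strand.
Bbc3: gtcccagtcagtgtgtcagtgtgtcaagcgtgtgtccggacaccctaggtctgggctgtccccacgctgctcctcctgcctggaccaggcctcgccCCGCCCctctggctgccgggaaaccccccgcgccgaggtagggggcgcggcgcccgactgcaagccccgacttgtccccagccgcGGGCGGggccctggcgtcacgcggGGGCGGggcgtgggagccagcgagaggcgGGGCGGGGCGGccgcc
Mcl1: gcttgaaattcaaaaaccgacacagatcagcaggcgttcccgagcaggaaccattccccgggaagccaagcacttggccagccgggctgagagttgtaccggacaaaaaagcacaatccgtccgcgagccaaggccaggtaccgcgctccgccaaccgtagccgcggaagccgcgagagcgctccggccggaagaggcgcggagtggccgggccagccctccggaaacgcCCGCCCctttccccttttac
Bax: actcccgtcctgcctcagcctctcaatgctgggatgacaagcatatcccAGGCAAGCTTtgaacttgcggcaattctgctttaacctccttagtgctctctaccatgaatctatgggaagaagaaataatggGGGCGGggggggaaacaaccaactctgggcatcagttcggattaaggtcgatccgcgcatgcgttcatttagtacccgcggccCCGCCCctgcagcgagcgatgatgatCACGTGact
Bok: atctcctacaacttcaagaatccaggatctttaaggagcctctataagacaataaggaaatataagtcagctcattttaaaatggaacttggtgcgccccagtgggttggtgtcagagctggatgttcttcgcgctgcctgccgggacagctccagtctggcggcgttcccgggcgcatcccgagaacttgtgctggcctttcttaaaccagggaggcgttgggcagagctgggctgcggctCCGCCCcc
The Bbc3 window held 5 GC boxes, the last of which shares 1 base with its neighbour, against 1 in Mcl1, 2 in Bax and 1 in Bok. The window of the second Bbc3 start held 1 and that of the third held more than the first, so the count depends on the start taken. The Bax window also held an E-box that begins 9 bases before the start and a p53 half-site that begins 201 bases before it.

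Sequences were found for 9 of the 10 members, with 16 windows in all. GC boxes lay in 9 of these windows, from 6 genes, against 32.7% of 32851 RefSeq windows of the same length. The FOXO letters TGTTTAC were found in 2 windows, one of Bcl2l11 and one of Bbc3, against 3.17% of all windows. The CCAAT letters were found in 5 windows (33.8% of all), the E-box in 2 (6.02%), the p53 half-site in 2 (7.13%) and the antioxidant response element TGACNNNGC in 1 (10.2%). Of the 11 motifs searched on both strands, 5 had no match in any window of a member: AP-1 (TGANTCA, 6.75% of all windows), CRE (TGACGTCA, 1.55%), the C/EBP-ATF composite (TGATGCAA, 0.791%), STAT (TTCNNNGAA, 7.02%) and E2F (TTTCCCGC, 0.895%). Beyond the shared base, no marked matches in the printed windows overlap. A match describes letters in the window and not a bound site.

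Bortezomib was compared with DMSO in WT HSCs to ask how these cells respond to proteasome inhibition. Bax and Bok, both pore formers, rose, and Bbc3, the gene of the BH3-only protein PUMA, fell. These were 3 of 10 members called by the edgeR quasi-likelihood test (Benjamini-Hochberg adjusted p under 0.05 over all genes tested), against 15.5% of all genes. The 2 that rose stand beside 7.97% of all genes called higher, and the 1 that fell beside 7.56% called lower. The members' median log2 fold change was 0.09, beside -0.04 over all genes. The libraries of the groups did not overlap for 5 of 10 members, against 36.9% of all genes. Leaving out a library ended calls: 0 members were called without WT DMSO 2 or without WT bortezomib 1, and 1 without WT DMSO 1.

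In knockout-labelled HSCs the same drug comparison called 1 of 10 members, Bok, which fell, against 3.63% of all genes (2.02% higher and 1.61% lower). The members' median was 0.17, beside 0.00 over all genes (0.00299), and 2 of 10 did not overlap, against 20.3% of all genes. That call ended in several alternatives and is given with Bok below. Both drug comparisons and the genotype comparisons share groups, so their values are set side by side and not correlated.

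The genotype labels were compared within each treatment. In DMSO, edgeR called 0 of 10 members, and 0% of all genes. Only Bbc3 did not overlap between the labels, 1 of 10 members against 18% of all genes. At an unadjusted p under 0.05 there was 1 member, Bbc3, among 1454 genes, or 9% of all. DESeq2 and limma voom also called 0 members, while calling 157 and 114 genes. In bortezomib, 5 of 10 members were called in knockout-labelled against WT HSCs, against 32.4% of all genes: Bbc3, Mcl1 and Pmaip1 rose, and Bok and Bax fell. Over all genes 17.2% were called higher and 15.3% lower. The libraries of 7 of 10 members did not overlap, against 44.1% of all genes, and the members' median was 0.27 beside 0.08 over all genes. The count fell to 3 without WT bortezomib 1, WT bortezomib 2, knockout-labelled bortezomib 1 or knockout-labelled bortezomib 2. The test of the difference between the drug responses, an interaction term, called Bok and Bbc3, 2 of 10 members against 9.05% of all genes (4.35% higher and 4.71% lower).

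**Figure D1:**
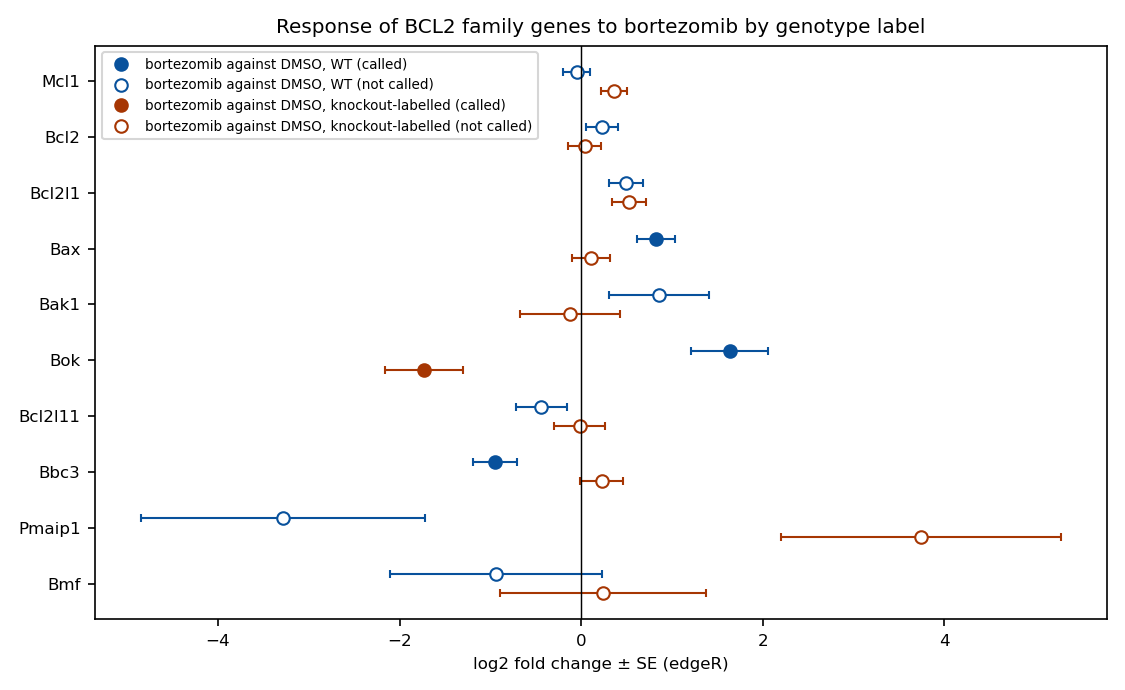
Log2 fold change of bortezomib against DMSO, with its SE, for the 10 members in WT (blue) and knockout-labelled HSCs (brown); filled points passed the edgeR threshold and open points did not. Bok lies at 1.63 in WT and -1.73 in knockout-labelled HSCs, and the wide bars of Pmaip1 and Bmf come with low counts.

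Mcl1 (ENSMUSG00000038612.16, chromosome 3, 95658788 to 95663176, GRCm38) was the most abundant of the survival genes taken here and did not pass the test for bortezomib in either genotype label. Its 3 WT DMSO libraries held 293, 358 and 335 CPM, and WT bortezomib held 303, 294 and 356. These groups overlap almost fully. The log2 fold change was -0.05 (SE 0.15, 95% interval -0.36 to 0.26, edgeR adjusted p = 0.8604). Knockout-labelled DMSO libraries held 329, 368 and 377 CPM, and knockout-labelled bortezomib held 465, 485 and 432. All 3 of the latter lay above every other treatment library. Within the knockout label the drug difference was 0.36 (SE 0.15) and did not pass (edgeR adjusted p = 0.2079). Between genotype labels in bortezomib, Mcl1 rose by 0.54 (SE 0.15, edgeR adjusted p = 0.01105), a 1.45-fold ratio of means. That call ended without WT bortezomib 1 (adjusted p = 0.05467) or WT bortezomib 2 (adjusted p = 0.05607). The interaction was 0.41 (95% interval -0.03 to 0.85, edgeR adjusted p = 0.2245), and limma voom gave 0.52 (adjusted p = 0.02435).

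Bcl2l1, which encodes BCL-XL, was higher on average in both bortezomib groups without passing the edgeR test in either. WT DMSO held 57.7, 48.9 and 55.9 CPM and WT bortezomib 76.0, 73.9 and 78.9, with no overlap. The log2 fold change was 0.49 (SE 0.18, edgeR adjusted p = 0.08089), while limma voom gave 0.53 with an adjusted p of 0.005456 and DESeq2 0.51 with an adjusted p of 0.04227. Knockout-labelled DMSO held 62.7, 60.3 and 49.97 CPM, and knockout-labelled bortezomib 93.1, 60.9 and 94.9. Its second bortezomib library lay inside the DMSO range, and the log2 fold change was 0.53 (SE 0.18, edgeR adjusted p = 0.1397). The 2 responses differed by 0.03 (95% interval -0.52 to 0.58).

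Bcl2 had no call in any treatment comparison. It ranged over 77.5 to 93.9 CPM (DMSO) and 86.7 to 119.5 (bortezomib) in the WT groups and 66.2 to 84.0 (DMSO) and 71.5 to 93.2 (bortezomib) in the knockout-labelled groups, so all 4 groups overlap with at least another. Between genotype labels in bortezomib the log2 fold change was -0.33 (SE 0.18, edgeR adjusted p = 0.1816), and with length and GC offsets it was -0.68 (adjusted p = 0.0141). Exons of Bcl2 overlap 558 bases of the antisense gene D630008O14Rik, and the strand setting of the counting is not given in the sources used here, so reads of the pair cannot be told apart.

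**Figure D2:**
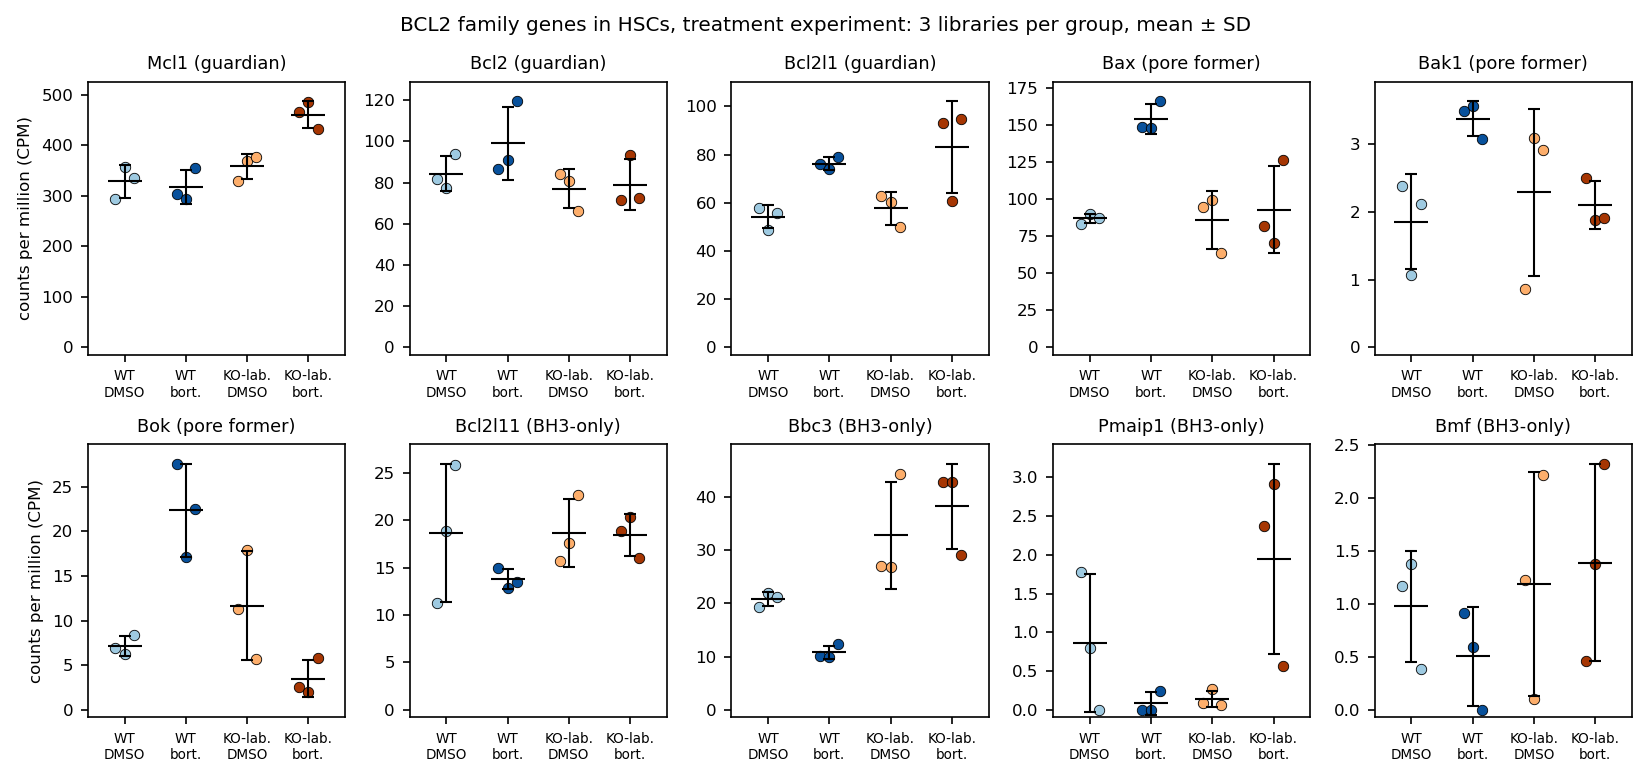
CPM (vertical axes, each including 0 and scaled to its gene) for the 10 members in the 12 treatment libraries; points are libraries and bars are means ± SD of 3, and guardian marks the survival members. Bok is highest in WT bortezomib (17.1 to 27.5 CPM) and lowest in knockout-labelled bortezomib (1.99 to 5.84 CPM), and Bbc3 has the reverse order of those groups.

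Bax (ENSMUSG00000003873.10, chromosome 7, 45461697 to 45466898, GRCm38), the main pore former, was highest in WT bortezomib. WT DMSO held 83.4, 89.8 and 87.4 CPM, and WT bortezomib 148, 148 and 166. These groups lie far apart beside their spread, and the log2 fold change was 0.83 (SE 0.21, edgeR adjusted p = 0.01772). Knockout-labelled DMSO held 94.7, 99.1 and 63.6 CPM, and knockout-labelled bortezomib 81.5, 70.5 and 126. The knockout-labelled groups overlap, with a log2 fold change of 0.11 (SE 0.21, 95% interval -0.34 to 0.56). In bortezomib, Bax fell between the genotype labels by 0.73 on the log2 scale (SE 0.21, edgeR adjusted p = 0.0151). The difference between the drug responses was -0.71 (SE 0.30, edgeR adjusted p = 0.1426). Without the 3 libraries that stood apart it was -0.99 (adjusted p = 0.01192), and limma voom gave -0.90 (adjusted p = 0.003715). The WT call ended without WT DMSO 1, WT DMSO 2 or WT bortezomib 1 (adjusted p = 0.07097, 0.06701 and 0.06078), and the genotype call without knockout-labelled bortezomib 1 or 2 (0.06802 and 0.07747). Bax shares 192 exonic bases on the same strand with the annotated gene Gm45808, and how the counting treated reads in that part was not checked.

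Bok (ENSMUSG00000026278.14, chromosome 1, 93685660 to 93695764, GRCm38), a pore former related to BAX and BAK, moved in opposite directions in the 2 genotype labels. WT DMSO held 6.91, 6.24 and 8.42 CPM, and WT bortezomib 27.5, 17.1 and 22.5. Every WT bortezomib library was above every WT DMSO library, and Bok rose by 1.63 (SE 0.42, edgeR adjusted p = 0.0179), a 3.11-fold ratio of means. Knockout-labelled DMSO held 11.3, 17.9 and 5.70 CPM, and knockout-labelled bortezomib 2.601, 1.99 and 5.84. These groups overlap narrowly, at the third library of each, and Bok fell by 1.73 on the log2 scale (SE 0.43, edgeR adjusted p = 0.03512). The interaction was -3.37 (SE 0.60, edgeR adjusted p = 0.007693). Between genotype labels in bortezomib the log2 fold change was -2.67 (SE 0.44, edgeR adjusted p = 0.000475). The genotype call in bortezomib held in all 21 alternatives (adjusted p up to 0.003749) and the interaction in all 20 (up to 0.04128).

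The 2 drug calls of Bok were less stable than its genotype call and its interaction. The rise in WT did not pass without WT DMSO 1, WT DMSO 2 or WT bortezomib 1 (adjusted p = 0.0686, 0.08457 and 0.08304). The fall in knockout-labelled HSCs did not pass with the Xist share as a covariate (adjusted p = 0.08809), with only the 6 knockout-labelled libraries fitted (0.1095), or without WT DMSO 1 (0.05064), knockout-labelled DMSO 1 or 2 (0.08754 and 0.2043) or knockout-labelled bortezomib 1 or 2 (0.1233 and 0.1415). Without the 3 libraries that stood apart, Bok rose by 1.81 in WT (adjusted p = 0.006455) and its log2 fold change in knockout-labelled HSCs was -2.33 (adjusted p = 0.002867). Per kilobase, the share of Bok among the pore formers was 6.53% ± 0.966 (DMSO) and 10.9% ± 2.38 (bortezomib) in the WT groups and 9.78% ± 3.15 (DMSO) and 2.90% ± 0.775 (bortezomib) in the knockout-labelled groups.

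Bak1, which encodes the pore former BAK, was low in every group, at 1.06 to 2.39 CPM in WT DMSO and 3.08 to 3.56 in WT bortezomib. These ranges do not overlap, but the log2 fold change of 0.86 (SE 0.55) did not pass (edgeR adjusted p = 0.3149). Knockout-labelled libraries spread from 0.865 to 3.10 CPM in DMSO and from 1.89 to 2.51 in bortezomib. Exons of Bak1 overlap the antisense gene Ggnbp1 over 177 and 437 bases, with the same limit on strand as for Bcl2.

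Bbc3 (ENSMUSG00000002083.12, chromosome 7, 16308393 to 16318205, GRCm38) had the smallest adjusted p of the family. PUMA, its product, binds all the survival members, and the gene is a known target of p53 and FOXO3. WT DMSO held 19.3, 22.0 and 21.1 CPM, and WT bortezomib 10.03, 9.99 and 12.3. Bbc3 fell by 0.95 on the log2 scale (SE 0.24, edgeR adjusted p = 0.0173), and the groups do not overlap. Knockout-labelled DMSO held 27.0, 26.8 and 44.3 CPM, and knockout-labelled bortezomib 42.8, 42.8 and 29.0. These overlap, with a log2 fold change of 0.22 (SE 0.24, 95% interval -0.28 to 0.73). In bortezomib, Bbc3 rose between the genotype labels by 1.83 (SE 0.25, edgeR adjusted p = 0.0001826), a 3.55-fold ratio of means, in all 21 alternatives (adjusted p up to 0.001792). In DMSO the genotype difference was 0.65 (SE 0.24, edgeR adjusted p = 0.4283), with no overlap between the groups.

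The responses of Bbc3 to bortezomib differed between the genotype labels by 1.18 (SE 0.34, edgeR adjusted p = 0.04251), a call near the threshold. It did not pass with the Xist share as a covariate (1.01, adjusted p = 0.1594), nor in 9 of the 12 fits that left out a library (adjusted p = 0.0536 to 0.1232), and it passed without the 3 libraries that stood apart (1.39, adjusted p = 0.008216). Those 9 left out WT DMSO 1, 2 or 3, WT bortezomib 1 or 2, knockout-labelled DMSO 1 or 2, or knockout-labelled bortezomib 1 or 2. The fall in WT did not pass without WT DMSO 2, WT bortezomib 1 or WT bortezomib 2 (adjusted p = 0.07063, 0.08017 and 0.0644).

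Set against Mcl1, Bbc3 was lowest in WT bortezomib. For every 100 units of Mcl1 per kilobase, WT DMSO libraries held 10.6, 9.90 and 10.2 units of Bbc3 per kilobase and WT bortezomib libraries 5.33, 5.48 and 5.55. Knockout-labelled libraries held 13.2, 11.7 and 18.9 in DMSO and 14.8, 14.2 and 10.8 in bortezomib. Every knockout-labelled library thus had a higher ratio than every WT library. Bax was highest in the WT bortezomib libraries by this measure, and its other groups overlapped, at 54.5 to 61.8 units per 100 of Mcl1 (DMSO) and 101.2 to 109.2 (bortezomib) in the WT groups and 36.6 to 62.4 (DMSO) and 31.6 to 63.2 (bortezomib) in the knockout-labelled groups. No test was made on these ratios, which restate the levels above as transcripts and not as protein.

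Pmaip1, which encodes NOXA, a BH3-only protein that binds MCL1, rested on few reads. WT DMSO held 35, 18 and 0 counts, WT bortezomib 0, 0 and 5, knockout-labelled DMSO 2, 5 and 1, and knockout-labelled bortezomib 51, 57 and 15. The last group is the highest at 1.95 ± 1.23 CPM, and without it most libraries lie near the floor of 3 counts. Between genotype labels in bortezomib it rose by 4.47 on the log2 scale (SE 1.61, edgeR adjusted p = 0.04443). The size depends on the prior count of the fit. That call ended with the replicate block (adjusted p = 0.1295) and in 9 of 12 fits that left out a library (0.05043 to 0.1345), which were those without WT DMSO 1 or 2, WT bortezomib 1 or 2, knockout-labelled DMSO 1, 2 or 3, or knockout-labelled bortezomib 1 or 2. The drug differences did not pass (edgeR adjusted p = 0.1685 in WT and 0.2208 in knockout-labelled HSCs). In WT the difference passed with limma voom (-4.43, adjusted p = 0.02784), and without the 3 libraries that stood apart it passed in WT (-7.69, adjusted p = 0.005476) and in knockout-labelled HSCs (4.19, adjusted p = 0.01719). The interaction was 7.02 (SE 2.20, edgeR adjusted p = 0.05613), and DESeq2 gave 7.16 with an adjusted p of 0.008983.

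Bcl2l11, which encodes BIM, and Bmf, a BH3-only gene known for links to the cytoskeleton, had no call. Bcl2l11 ranged over 11.2 to 25.9 CPM (DMSO) and 12.9 to 14.96 (bortezomib) in the WT groups and 15.7 to 22.6 (DMSO) and 15.99 to 20.4 (bortezomib) in the knockout-labelled groups. The bortezomib groups do not overlap, yet the difference between genotype labels of 0.42 (95% interval -0.17 to 1.00) did not pass. Bmf had 0 to 31 counts in the WT libraries and 2 to 62 in the knockout-labelled ones. The standard errors of its treatment comparisons were 1.14 to 1.62 on the log2 scale, so a change of the size called for Bok in WT (1.63) would not have been detectable.

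Markers of cell state and of other cells also differed between WT bortezomib and WT DMSO. The summed HSC markers were lower in WT bortezomib than in WT DMSO, as given above, and Cd48, which the sort excludes, was 30.2 to 54.3 CPM against 9.99 to 12.4. Summed erythroid markers (9 genes) were 195 to 225 CPM against 72.9 to 97.6, T and NK cell markers (8 genes) 148 to 219 against 87.0 to 92.7, and monocyte and macrophage markers (8 genes) 135 to 244 against 85.7 to 123. In knockout-labelled bortezomib, the other side of the genotype comparison, these lists stood at 56.2 to 80.8, 49.5 to 129 and 97.6 to 99.0 CPM, and Cd48 at 3.57 to 14.4. In knockout-labelled DMSO they stood at 96.7 to 223.7, 84.6 to 141.5 and 61.1 to 90.5 CPM, and Cd48 at 13.8 to 20.1. With the drug in that label the erythroid sum was thus lower and the monocyte and macrophage sum higher, without overlap. Lower HSC markers were not particular to WT: in both labels the mean of every HSC marker but Ly6a was lower with bortezomib. In the knockout label Hlf went from 450 ± 122 to 210 ± 18.8 CPM and Kit from 993 ± 114 to 605 ± 104. Ly6a rose there from 407 ± 61.9 to 657 ± 84.7 CPM, which kept the sum up. The T and NK cell sum was carried by Nkg7 (166 CPM on average in WT bortezomib against 74.0 in WT DMSO), and the erythroid sum mostly by 1 of its 9 genes. In WT bortezomib the erythroid marker Slc4a1 and the T cell markers Cd3e, Cd3d, Cd3g, Cd8a and Il7r had 0 counts in all 3 libraries. B cell and neutrophil marker ranges overlapped between the WT groups. Summed megakaryocyte markers were 475 to 614 CPM with bortezomib against 618 to 790, and endothelial and stromal markers 20.9 to 33.0 against 33.0 to 67.3. The lower megakaryocyte sum was carried by Mmrn1 (258 CPM on average in WT bortezomib against 503.5 in WT DMSO). Ppbp was also lower on average, Gp9 was level (47.5 against 47.4), and Pf4, Itga2b and Gp1ba were higher. The part of these shifts in the BCL2 family results was not tested. In bulk samples, fewer cells of a type and less RNA per cell cannot be told apart.

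Other genes of the apoptosis pathway were taken from 6 lists. The counts of called genes stand beside the shares of all genes called: 15.5% for bortezomib in WT, 3.63% in the knockout label, 32.4% between labels in bortezomib (17.2% higher and 15.3% lower) and 9.05% in the interaction. The lists were not tested as groups. Among 16 further BCL2 family genes, 11 were tested, and 2, 0, 3 and 0 were called in these comparisons. In WT HSCs bortezomib raised Bad, a BH3-only gene, from 49.1 ± 9.26 to 88.7 ± 4.56 CPM (log2 fold change 0.85, edgeR adjusted p = 0.009396) and lowered Bcl2l14 from 7.15 ± 1.76 to 1.49 ± 1.81 CPM (-2.26, adjusted p = 0.02835). Between genotype labels in bortezomib, Bad and Bcl2l12 fell (-0.74 and -1.05, adjusted p = 0.007088 and 0.006707) and Bcl2l14 rose (2.51, adjusted p = 0.008221). None of the 11 was called by edgeR for bortezomib in knockout-labelled HSCs or in the interaction. The list's median was -0.11 for bortezomib in WT, 0.16 in the knockout label and -0.06 between labels in bortezomib.

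Downstream of the pores, Cycs, the gene of cytochrome c, fell between the genotype labels in bortezomib. It rose from 64.0 ± 12.5 to 211 ± 26.8 CPM with bortezomib in WT (1.72, edgeR adjusted p = 0.003273) and stood at 61.5 ± 19.3 and 48.1 ± 19.6 CPM in the knockout-labelled groups. The genotype difference in bortezomib was -2.13 (SE 0.28, adjusted p = 0.000168) and the interaction -2.08 (adjusted p = 0.00876). The caspase inhibitor gene Birc3 had the reverse pattern: it fell from 42.6 ± 3.16 to 20.8 ± 1.03 CPM in WT (-1.03, adjusted p = 0.009366) and rose from 36.2 ± 5.06 to 67.0 ± 24.0 in the knockout label (0.89, adjusted p = 0.03949). Its interaction was 1.92 (adjusted p = 0.005859). Birc5, which encodes survivin, also known for its role in cell division, fell between labels in bortezomib (-1.62, adjusted p = 0.0003402), as did the mitochondrial protease gene Htra2 (-1.04, adjusted p = 0.0006631). Of the 16 genes of the apoptosome, effector caspases and IAPs, 2 rose and 1 fell for bortezomib in WT, 1 rose in the knockout label, and 2 rose and 6 fell between labels in bortezomib, with medians of 0.22, -0.09 and 0.11. The 3 of 16 called in WT are near the 15.5% of all genes.

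A list of 8 partner genes was named for the outer mitochondrial membrane, where the family acts, though not all encode proteins of that membrane. Of these genes, 0 rose and 4 fell in knockout-labelled against WT HSCs under bortezomib, beside 17.2% and 15.3% of all genes. Their median was -0.56 beside 0.08 over all genes. Mtch2, a receptor for BID, stood at 212 ± 56.3 CPM in WT DMSO and 467 ± 34.4 in WT bortezomib (1.14, edgeR adjusted p = 0.004116), against 163 ± 29.0 and 184 ± 36.3 in the knockout-labelled groups. The genotype difference in bortezomib was -1.34 (adjusted p = 0.0003164). The channel genes Vdac3, Vdac2 and Vdac1 fell by 0.94, 0.62 and 0.56 on the log2 scale (adjusted p = 0.001106, 0.003265 and 0.009754). In WT HSCs bortezomib raised 3 of the 8 (Mtch2, Vdac3 and Vdac2) and lowered 0, and in the knockout label edgeR called 0.

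In the death receptor arm, 3 of 8 genes rose and 1 fell between the genotype labels in bortezomib, beside 17.2% and 15.3% of all genes. Fas rose from 3.59 ± 1.39 CPM in WT to 11.8 ± 1.57 (1.71, edgeR adjusted p = 0.006015), Tnfrsf1a rose from 131 ± 4.53 to 216 ± 8.57 (0.71, adjusted p = 0.001297), and the kinase gene Ripk1 rose by 0.77 (adjusted p = 0.01958). Fadd, the adaptor gene, fell from 20.7 ± 0.933 to 8.31 ± 2.05 CPM (-1.31, adjusted p = 0.00357). EdgeR called 0 of these 8 genes for bortezomib within either label. The interaction was called for Fas (2.27), Tnfrsf1a (0.66) and Fadd (-1.47), with adjusted p = 0.02798, 0.04498 and 0.03998.

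Genes that act on the turnover or placement of MCL1 and BIM proteins were led by the dynein light chain genes, whose products hold BIM and BMF at the cytoskeleton. Dynll1 rose from 164 ± 14.9 to 603 ± 84.0 CPM with bortezomib in WT (1.88, edgeR adjusted p = 0.002285) and Dynll2 from 27.3 ± 4.02 to 51.4 ± 1.90 (0.91, adjusted p = 0.009588). Dynll1 stood at 165 ± 70.8 and 200 ± 69.6 CPM in the knockout-labelled groups, and its interaction was -1.61 (adjusted p = 0.01914). Huwe1, a ubiquitin ligase of MCL1, and Gsk3b, a kinase that marks MCL1 for degradation, rose between labels in bortezomib (0.84 and 0.70, adjusted p = 0.009664 and 0.02878). Of the 9 tested genes of this list of 11, 3 rose and 2 fell in that comparison, 2 rose in WT with bortezomib and 0 were called in the knockout label, beside 32.4%, 15.5% and 3.63% of all genes called.

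Of 14 tested transcription regulators of the family, 8 rose and 2 fell in knockout-labelled against WT HSCs under bortezomib, beside 17.2% and 15.3% of all genes. Their median was 0.62 beside 0.08 over all genes. Foxo3, a known regulator of Bbc3 and Bcl2l11, fell from 29.9 ± 5.05 to 14.2 ± 1.37 CPM with bortezomib in WT (-1.08, edgeR adjusted p = 0.0226) and stood at 54.5 ± 28.5 and 37.6 ± 6.30 CPM in the knockout-labelled groups, with a genotype difference in bortezomib of 1.41 (adjusted p = 0.002113). Stat3 and Rela rose by 1.22 and 0.82 in that comparison (adjusted p = 0.0005458 and 0.001349). E2f1 ran the other way, from 59.8 ± 5.82 to 115 ± 6.62 CPM in WT (0.95, adjusted p = 0.01301) and from 63.2 ± 21.4 to 30.4 ± 4.95 in the knockout label (-1.06, adjusted p = 0.01612), with an interaction of -2.01 (adjusted p = 0.004942). With bortezomib, 1 rose and 5 fell in WT, and 0 rose and 2 fell in the knockout label. In DMSO, edgeR called 0 genes of the 6 lists between genotype labels, where it called 0 genes in all.

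**Figure D3:**
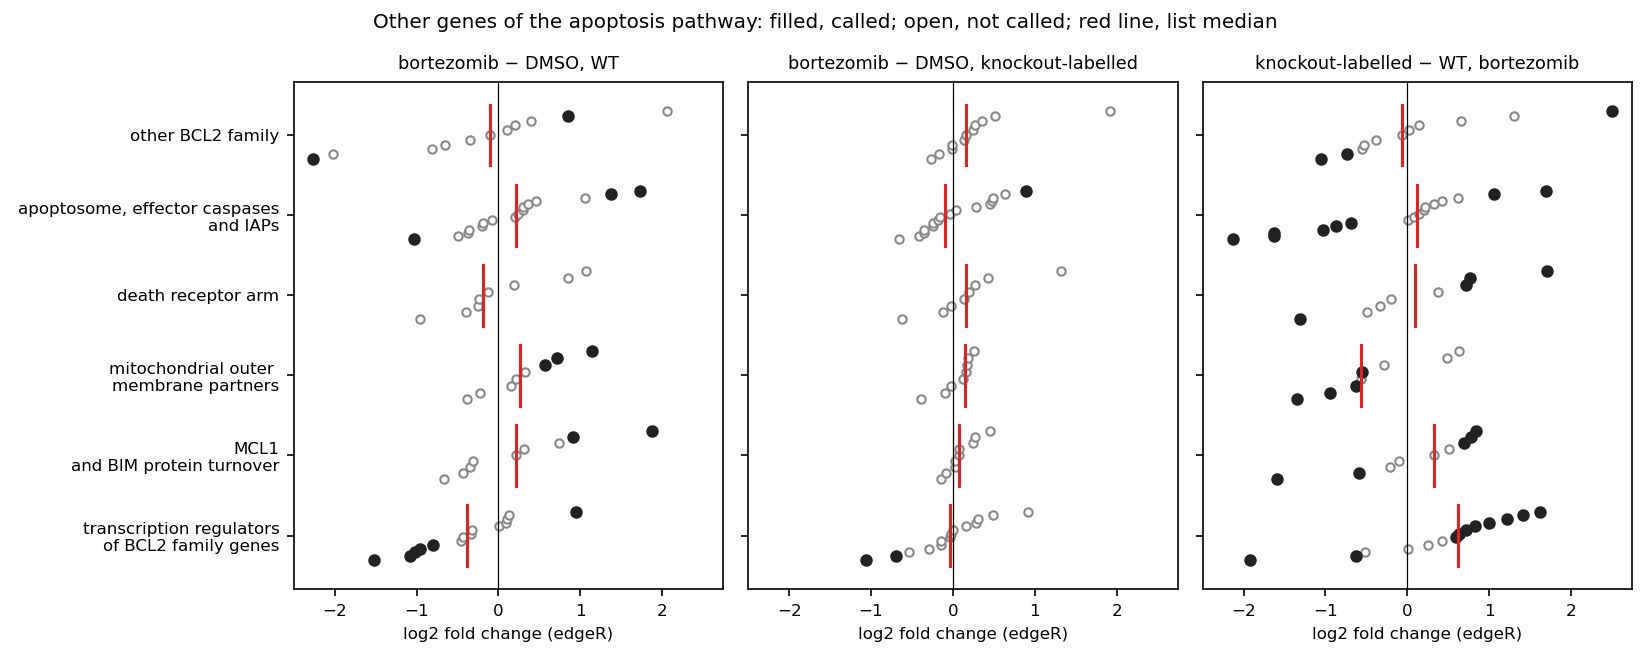
Log2 fold changes (edgeR, horizontal axes shared) for the tested genes of the 6 pathway lists in 3 comparisons; filled points were called, open points were not, and red lines are list medians. In the right panel the median of the mitochondrial outer membrane partners lies at -0.56 and that of the transcription regulators at 0.62.

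Among tested genes with a standard symbol, the 5 whose log2(CPM + 1) over the 12 treatment libraries was most like that of Bbc3 were Lrp10 (Pearson r = 0.983), Gpr18 (0.968), Ulk1 (0.967), Spata6 (0.966) and Bcas3 (0.966). Predicted and clone-type gene symbols were left out before the highest were taken. The libraries fall into 4 groups that set much of each correlation, so the values are a description.

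The reporter groups were compared to ask whether the family differs between HSCs with different LC3 fluorescence. No member was called by edgeR in any of the 3 comparisons, and the tested members' smallest adjusted p was 0.5721. Among all genes, edgeR called 0% between single and double positive cells, 0% between single positive and double negative cells and 0.0065%, or 1 gene, between double positive and double negative cells. At an unadjusted p under 0.05, 0, 1 and 1 members passed, each time Bax, against 1.36%, 7.54% and 8.55% of all genes. DESeq2 called 0 members and 2, 19 and 47 genes, and limma voom called 0 members.

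Bax and Bcl2 were both highest in double negative cells. Bax held 108, 144 and 100.4 CPM there, against 72.2, 67.7 and 101 in single positive and 73.4, 102 and 68.1 in double positive cells, and the highest libraries of the latter groups reach into its range. Single positive minus double negative was -0.55 (SE 0.24, 95% interval -1.06 to -0.04, edgeR adjusted p = 0.6515), and double positive minus double negative was -0.53 (SE 0.24, edgeR adjusted p = 0.5721). Bcl2 held 93.2, 110.1 and 99.0 CPM in double negative cells, above all libraries of the single positive (82.4 to 87.6) and double positive cells (78.3 to 91.1), with differences of -0.24 and -0.23 that did not pass. The members without overlap numbered 0, 2 and 1 of 9 in the 3 comparisons, against 7.36%, 13.2% and 11.2% of all genes. Double negative cells also had the highest mean levels of Cd48 (17.7 to 54.1 CPM, against 1.86 to 15.9 in single positive and 8.17 to 12.5 in double positive cells) and Nkg7, which carried the sum of the T and NK cell markers (163.9 CPM on average, against 91.0 in single positive and 70.8 in double positive cells). Cd3e, Cd3g, Cd8a and Il7r were at 0 there, and Cd4 was 2.25 CPM against 3.50 and 4.005. Every HSC marker but Ly6a had its lowest reporter mean in double negative cells, such as Kit at 482 CPM against 714 in single positive and 783 in double positive cells. The summed HSC markers overlapped, at 1774 to 2754 CPM against 2615 to 2921 and 2339 to 3151. The part of these marker differences in the levels of Bax and Bcl2 was not tested.

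The other members overlapped between the reporter groups, except Bbc3 between single positive (13.0 to 13.8 CPM) and double negative cells (7.80 to 12.8 CPM). Mcl1 ranged from 261 to 365 CPM over the 9 libraries, Bcl2l1 from 27.3 to 82.7, Bok from 6.84 to 14.0, Bcl2l11 from 6.38 to 19.1 and Bak1 from 1.95 to 4.67. Between single positive and double negative cells, the intervals allowed changes of -0.49 to 0.32 for Mcl1, -1.11 to 0.52 for Bok and -0.40 to 1.077 for Bbc3 on the log2 scale. Pmaip1 had 14, 11 and 0 counts in single positive, 0, 1 and 0 in double positive and 2, 0 and 0 in double negative cells, and Bmf had 0 to 101 counts per library.

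**Figure D4:**
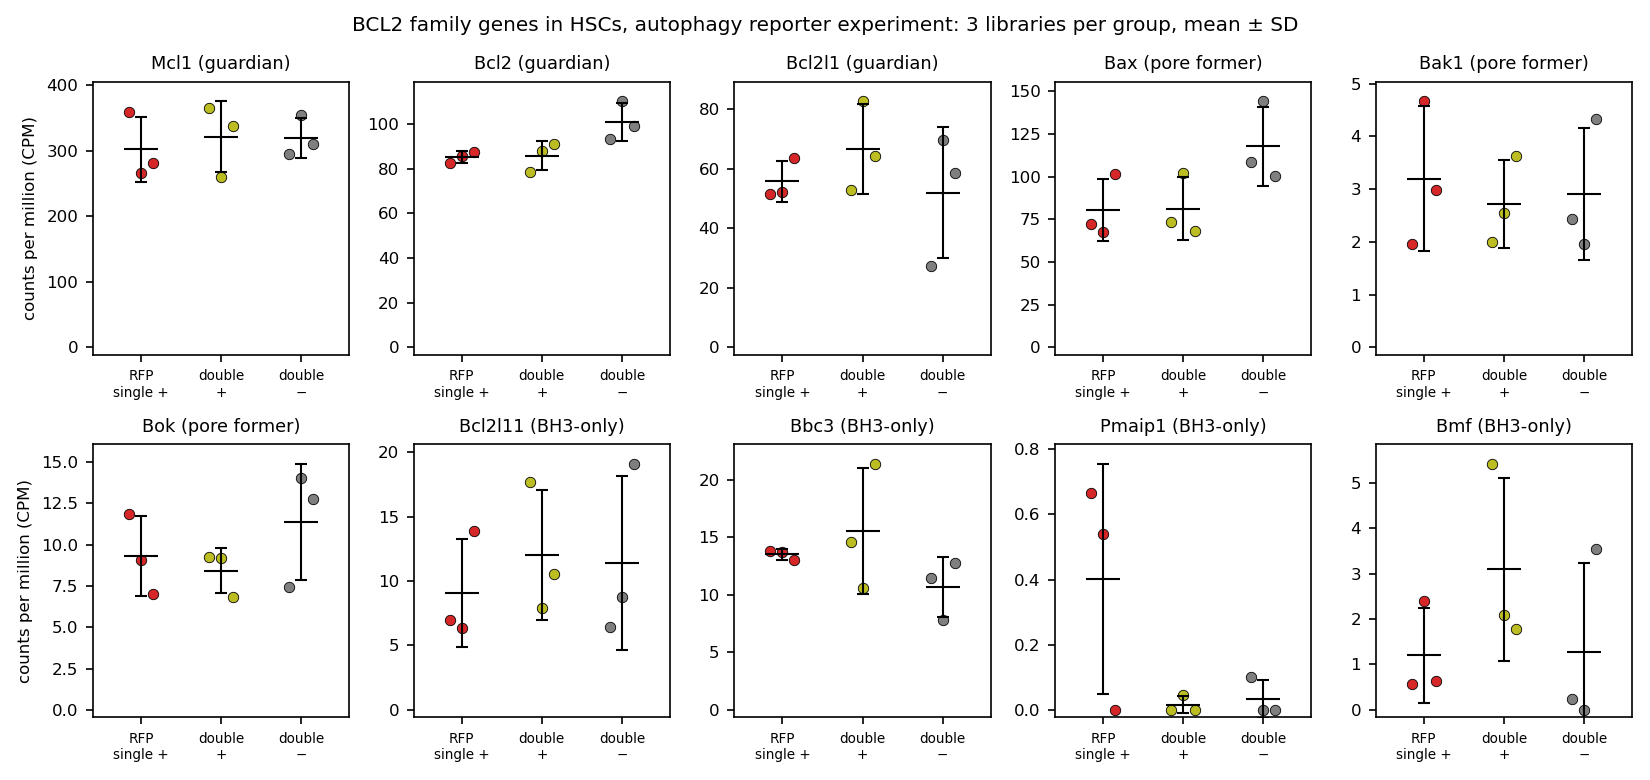
CPM (vertical axes, each including 0 and scaled to its gene) for the 10 members in the 9 reporter libraries; points are libraries and bars are means ± SD of 3, and guardian marks the survival members. The 3 double negative libraries of Bcl2 (93.2 to 110.1 CPM) lie above those of the other groups, while Mcl1 spans 261 to 365 CPM with the groups intermixed.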

How the data were processed

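The authors deposited raw read counts per gene, with 0 columns that matched no sample. Per the submitters' processing notes, Bowtie 1.0.0, STAR 2.6.1 and HTSeq 0.7.1 were used, and the builds GRCm38.p4 and GRCh38 are named without roles. The sources used here give neither the annotation nor the strand setting. Gene coordinates and exon lengths are from GENCODE M21 (GRCm38), which matched 98.9% of rows.

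The members, lists and rules were chosen with earlier results of these data known. Counts were fitted in R 4.3.3 with edgeR 4.0.16 (filterByExpr, TMM, quasi-likelihood, 1 mean per group), separately for the 12 treatment and 9 reporter libraries, with Benjamini-Hochberg adjustment over all genes tested and calls at an adjusted p under 0.05. Named were all 10 members, Atg5, at most 4 called genes of each pathway list by smallest adjusted p, and the 5 genes with a standard symbol most like the leading member. D630008O14Rik, Gm45808 and Ggnbp1 are named as overlapping genes, and Xist and Ddx3y as sex markers. CPM uses TMM-scaled library sizes. Alternatives were relative log expression factors, DESeq2 1.42.0, limma 3.58.1 voom, no filter, a fit of only the compared groups, a replicate block, the Xist share as a covariate, 3 libraries left out together, each library left out, and, added after seeing the data, offsets for length and GC (4 degrees of freedom). The procedure was tested on simulated data. No libraries of a group agreed within counting noise (chi-square per degree of freedom 11.9 to 122). Figures were drawn with matplotlib 3.10.9.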

Additional observations from a re-analysis of the deposited data

Results flagged for a closer look

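The response to bortezomib differed between the genotype labels for 2 members by the test of the difference itself. For Bok the knockout-labelled response minus the WT response was -3.37 on the log2 scale (SE 0.60, edgeR adjusted p = 0.007693): all 3 WT bortezomib libraries were above the WT DMSO libraries, while 2 of the 3 knockout-labelled bortezomib libraries were below all of the knockout-labelled DMSO libraries. For Bbc3 the difference was 1.18 (SE 0.34, edgeR adjusted p = 0.04251), with all 3 WT bortezomib libraries below WT DMSO and overlapping knockout-labelled groups. The knockout-labelled arm rests on labels that the counts of Atg5 did not check.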

How the results depend on the processing

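No call of a member reversed its sign. Of 11 called member results, the genotype differences of Bok and Bbc3 in bortezomib and the interaction of Bok passed in every alternative, and the other 8 did not. Of 66 results without a call, 8 were called in at least 1 alternative and 26 changed sign in at least 1. The number of members called for bortezomib in WT was 3, and 6 with limma voom. For bortezomib in the knockout label it was 1, and 0 with the Xist share as a covariate, 0 with only the groups compared and 2 without the 3 libraries that stood apart. For the interaction it was 2, and 5 with limma voom, 1 with the Xist share and 4 without those 3 libraries. With each library left out in turn the counts ranged from 0 to 4 (bortezomib in WT), 0 to 1 (knockout label), 3 to 5 (genotype in bortezomib) and 1 to 4 (interaction). The comparison between genotypes in DMSO and the 3 reporter comparisons stayed at 0 members in all alternatives run.

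Over all genes, the counts moved by more than 1.5 times as follows. Bortezomib in WT called 2508 genes, and 6234 with voom, 1629 with the Xist share and 3961 without the 3 libraries. In the knockout label it called 586, and 1238 with DESeq2, 1577 with voom, 1085 without a filter, 318 with only the groups compared and 1902 without the 3 libraries. The interaction called 1462, and 2443 with DESeq2, 4862 with voom, 2319 without a filter, 276 with the Xist share and 4015 without the 3 libraries. Genotype in DMSO called 0, and 1 to 189 in the alternatives that called any. With each library left out in turn, the counts ranged from 588 (without WT bortezomib 1) to 3236 (without knockout-labelled bortezomib 3) for bortezomib in WT, from 182 (without knockout-labelled DMSO 2) to 1040 (without knockout-labelled bortezomib 3) in the knockout label, from 3582 to 6000 between labels in bortezomib (5234 with all libraries), from 352 (without knockout-labelled DMSO 2) to 2820 (without knockout-labelled bortezomib 3) for the interaction and from 0 to 37 for genotype in DMSO. The reporter comparisons called 0, 0 and 1, and up to 2, 19 and 47, each time with DESeq2.

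Same-numbered libraries did not deviate together throughout (correlations of -0.0864 to 0.168 between treatment groups and -0.0109 to 0.286 between reporter groups), so the correlations did not reach the level set for pairing in every pair, and not every library correlated best with its own number. The numbers are not without structure: the 3 libraries left out together all carry number 3, library 3 was highest on the third principal component in all 4 treatment groups, and libraries 1 and 2 were the most alike pair in each of them (chi-square per degree of freedom 15.04, 11.9, 28.6 and 44.5). In the reporter groups the Xist share followed the number. In single positive, double positive and double negative order it was 0%, 0% and 10.2% for libraries 1. It was 99.9%, 97.4% and 88.1% for libraries 2, and 5.45%, 0.782% and 0% for libraries 3. Reporter libraries 1 and 3 also correlated best with their own number in all 3 comparisons, libraries 2 in none. Shared animals are not given in the labels, and the main reporter fits were not paired. The fit with the replicate number as a block called 3 members for bortezomib in WT, 1 in the knockout label, 4 between labels in bortezomib, where it ended the call of Pmaip1, and 2 in the interaction. Low counts limit Pmaip1, Bmf and Bak1. The causes of these changes were not tested.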
